A study of Mus musculus with 401 samples.

Results

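The core histone genes were followed across mouse oocytes and the cumulus cells around them, by histone type and gene cluster, over age, diet and hyperovulation. Members were the genes in the count tables whose symbols begin with Hist1h, Hist2h, Hist3h or Hist4h followed by 2a, 2b, 3 or 4, which gave 64 of 43633 gene identifiers. They comprised 20 H2A, 19 H2B, 12 H3 and 13 H4 genes. On GRCm38, 50 lie on chromosome 13 (Hist1), 10 on chromosome 3 between 96219865 and 96270132 (Hist2), 3 on chromosome 11 between 58948920 and 58956830 (Hist3) and 1 on chromosome 6 between 136801553 and 136804415 (Hist4). The Hist1 genes fall into blocks of 23 genes (21715763 to 22043676) and 26 genes (23531050 to 23934851), with Hist1h2al alone from 51202727 to 51203065. Hist1h2aj, Hist1h2al and Hist3h2bb-ps are annotated as pseudogenes and were kept, so 61 members code for protein.

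Core histones form the protein spool of the nucleosome, around which DNA is wrapped. Most core histone genes are expressed in S phase, when replicated DNA needs new nucleosomes, and their messenger RNAs end in a conserved stem-loop instead of a poly(A) tail. Fully grown oocytes are arrested and do not replicate DNA, but they store histone RNA and protein for the embryo, whereas cumulus cells of a growing follicle divide. Hist1h2aa and Hist1h2ba encode TH2A and TH2B, variants first known from testis that oocytes also make.

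All mice were B6D2F1 females (C57BL/6 x DBA/2) without any engineered allele. From each fully grown follicle, 1 oocyte at the germinal vesicle stage and the pool of cumulus cells around it were sequenced as separate libraries by RamDA-seq, which primes RNA with and without a poly(A) tail. In the first set, hyperovulated mice on an ad libitum (AL) diet were 2 months (Young), 9 months (Middle) or 14 months old (Old), and CR mice were 9 months old after a restricted diet. Oocyte libraries numbered 16, 14, 16 and 27 from 2, 4, 2 and 3 mouse labels, and cumulus libraries 15, 15, 16 and 25. In the second set, hyperovulated AL mice were 2, 4, 9 or 14 months old (2mo, 4mo, 9mo and 14mo, with 24, 39, 16 and 16 oocyte libraries and 24, 40, 16 and 16 cumulus libraries), and 2moNoH mice of 2 months gave 32 of each without hyperovulation. The authors counted 3 old mice, and the Old1_2 label, which holds 11 of the 16 Old oocytes, may stand for 2 of them. Several libraries came from each mouse, so a p-value over libraries measures the spread between follicles more than between mice.

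Depth ranged from 559305 to 4536690 counts in oocytes and from 510029 to 2501010 in cumulus libraries. CR oocytes (2752040 to 4536690) had the highest median depth of the oocyte groups, and Young oocytes reached 2843600, within the CR range. All 13 oocyte markers, among them Zp3 and Gdf9, were higher in 2mo oocytes and all 10 cumulus markers, among them Amh and Fshr, were higher in 2mo cumulus cells. A Middle complex was set aside, as its oocyte-labelled library correlated better with cumulus cells (r = 0.938) than with oocytes (r = 0.750) and its oocyte markers stood at 0.970% of the oocyte median, so 399 of 401 libraries entered. About 90% of the members' nonzero counts were not whole numbers (90.03% and 90.18% in the 2 sets, against 36.8% and 35.1% over all genes), because reads that fit several genes were shared among them. Values of a single gene with near-identical copies are therefore uncertain, while sums over a histone type keep such reads together.

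How far a member can be told from its relatives is seen in its coding sequence. The coding identity of a member to its closest relative of the same type had a median of 99.22% in H2A, 98.41% in H2B, 98.9% in H3 and 96.76% in H4. Hist2h2aa1 and Hist2h2aa2, Hist2h3c1 and Hist2h3c2, and Hist1h2bq and Hist1h2br were 100% identical. So were Hist1h2ao and Hist1h2ap, and Hist1h4m and Hist1h4n. The least alike were Hist1h2aa (83.72%), Hist4h4 (87.06%) and Hist1h2ba (87.83%). Of their nonzero counts, 79.2%, 11% and 78.5% were not whole in the first set and 59.9%, 10.2% and 82.4% in the second, so reads were shared with other genes in Hist1h2aa and Hist1h2ba too. In the first 75 coding bases of H2A, shown from GENCODE transcripts of GRCm38 because the results turn on these genes, capitals mark differences from Hist1h2ak, 13 in Hist2h2aa2 and 18 in Hist1h2aa.
Hist1h2ak: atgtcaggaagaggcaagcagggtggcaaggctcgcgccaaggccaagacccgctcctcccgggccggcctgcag
Hist2h2aa2: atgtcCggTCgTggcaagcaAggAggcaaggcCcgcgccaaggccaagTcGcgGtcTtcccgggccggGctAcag
Hist1h2aa: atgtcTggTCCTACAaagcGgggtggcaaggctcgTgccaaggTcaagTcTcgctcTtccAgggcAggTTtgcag
The same window length in H2B, starting 345 bases before the stop codon, is given with capitals at differences from Hist1h2bn, the leading cumulus member. Hist1h2bl had 1 difference, Hist1h2bc 2 and Hist1h2ba 15.
Hist1h2bn: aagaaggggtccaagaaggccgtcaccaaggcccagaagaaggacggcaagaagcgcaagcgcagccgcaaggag
Hist1h2bl: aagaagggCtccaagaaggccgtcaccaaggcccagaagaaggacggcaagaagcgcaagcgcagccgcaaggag
Hist1h2bc: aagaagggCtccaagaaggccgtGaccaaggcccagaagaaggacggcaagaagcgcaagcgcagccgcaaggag
Hist1h2ba: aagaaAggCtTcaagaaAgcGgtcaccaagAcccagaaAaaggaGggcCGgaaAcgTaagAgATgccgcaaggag

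Hist1h2ba (chr13:23933773-23934156, minus strand) and Hist1h2aa (chr13:23934462-23934851, plus strand) are neighbours transcribed away from each other, with 280 bases between their RefSeq starts. The stretch chr13:23934240-23934415 (GRCm38.p6, plus strand) lies between those starts and is shown because both genes were higher in oocytes. Capitals mark motifs on either strand. The TATA box, searched as TATAAA, matched at 2 places. The CCAAT box, searched by those letters, matched at 4, and the H2B octamer, searched as ATTTGCAT, at 1.
Shared upstream region: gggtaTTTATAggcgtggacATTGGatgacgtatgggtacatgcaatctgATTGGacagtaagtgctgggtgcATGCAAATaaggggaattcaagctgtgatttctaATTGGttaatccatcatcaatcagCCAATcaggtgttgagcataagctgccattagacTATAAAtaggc
Upstream windows of RefSeq were matched for 55 of the 64 members. On either strand, the octamer was found in 7 of 17 H2A and 6 of 16 H2B windows, in 0 of 10 H3 and in 0 of 12 H4 windows, against 1.6% of all 32851 promoters. The H2A and H2B counts are not independent, since neighbours transcribed away from each other share most of a window. The pairs Hist1h2aa and Hist1h2ba, Hist1h2ae and Hist1h2bg, and Hist1h2ah and Hist1h2bk did so, with an octamer in each window. CCAAT was found in every H2A and H2B window, in 8 of 10 H3 and in 3 of 12 H4 windows (33.85% of all promoters), and TATAAA in 25 of the 55 (12.37% of all promoters).

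The stem-loop that ends replication-dependent histone messages was searched for as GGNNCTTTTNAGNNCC after the stop codon, where N is any base. It was found in 40 of 61 coding members: 11 of 18 H2A, 10 of 18 H2B, 8 of 12 H3 and 11 of 13 H4. Of the 21 without a match, 15 have annotated transcripts that stop under 30 bases after the coding part, Hist1h2aa, Hist1h2ba and Hist1h2bn among them, so their annotation cannot show one. In 15 members the annotated transcript continued over 200 bases past the stem-loop, with 770 bases in Hist1h4d and 2445 in Hist4h4. The most common letters occurred in 23 members, as in Hist2h2aa2, followed by those of 7 members, as in Hist1h4d, and of 5, as in Hist1h3f (capitals mark the stem-loop, with 5 bases on either side).
Hist2h2aa2: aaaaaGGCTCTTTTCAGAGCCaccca
Hist1h4d: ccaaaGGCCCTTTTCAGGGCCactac
Hist1h3f: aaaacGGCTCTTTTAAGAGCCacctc

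All 4 histone types were found in oocytes and in cumulus cells, in shares that differed for H2A and H2B, and the separation of their ranges rested on 1 gene, Hist1h2aa. Levels are given as CPM, which are counts relative to the size of the library, scaled by TMM library sizes, and comparisons between genes are per kilobase of annotated length. H2A genes made up 31.49% to 55.23% of the summed core histone level per kilobase in the 200 oocyte libraries (median 46.55%) and 5.03% to 25.74% in the 199 cumulus libraries (median 18.19%). H2B genes made up 27.48% to 51.01% in oocytes (median 37.01%) and 54.33% to 80.35% in cumulus cells (median 62.57%). The cell types did not overlap in either share, in any of the 9 groups. The H3 shares (medians 6.96% and 5.72%) and the H4 shares (medians 9.4% and 12.58%) overlapped.

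**Figure D1:**
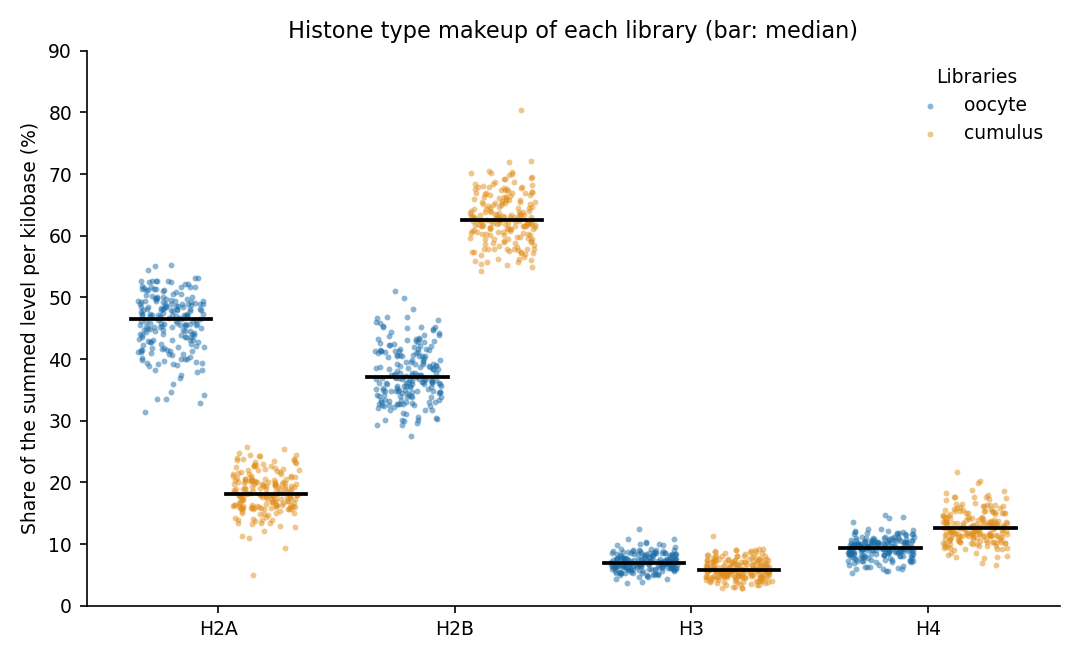
Share of each histone type in the summed core histone level per kilobase (y axis, %) in each of the 200 oocyte (blue) and 199 cumulus libraries (orange), with black bars at the medians. The H2A shares of oocytes start at 31.49%, above the highest cumulus share of 25.74%, and the H2B shares end at 51.01%, below the lowest cumulus share of 54.33%.

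Hist1h2aa alone took 9.11% to 38.5% of the summed level per kilobase in oocytes (median 28.09%) and at most 1.18% in cumulus libraries (median 0%). Without it, the H2A share fell to a median of 24.77% in oocytes (10.97% to 36.82%) and overlapped the cumulus range. The oocyte H2B share then had a median of 51.98% (39.93% to 65.92%) and overlapped the cumulus range of 54.34% to 80.35% too, and the H3 share a median of 9.85% against 5.72% in cumulus cells.

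In 2mo oocytes Hist1h2aa stood first at 137 ± 24.7 CPM per kilobase (SD, n = 24), followed by the H2B genes Hist1h2bc (30.5 ± 7.63), Hist1h2ba (29.3 ± 7.85) and Hist1h2bk (28.5 ± 5.93) and the H2A gene Hist2h2aa2 (26.9 ± 7.11). In 2mo cumulus cells the first places were all H2B: Hist1h2bn at 87.0 ± 28.8 CPM per kilobase (SD, n = 24), Hist1h2bl (62.5 ± 20.1), Hist1h2bk (48.0 ± 19.9) and Hist1h2bj (32.2 ± 18.5). The leading H4 gene there was Hist1h4d (17.4 ± 6.34) and the leading H2A gene Hist1h2ak (13.5 ± 9.17). The oocyte levels of Hist1h2bc, Hist1h2ba, Hist1h2bk and Hist2h2aa2 lay within each other's SD. In cumulus cells Hist1h2bn lay above Hist1h2bl by more than the SD of Hist1h2bl but by less than its own SD. Hist1h2bl and Hist1h2bk, and Hist1h2bk and Hist1h2bj, lay within each other's SD. These SDs are between libraries, and the order of genes within a library was not tested. Annotated lengths, which these levels are divided by, hold untranslated parts for some members and only the coding part for others.

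**Figure D2:**
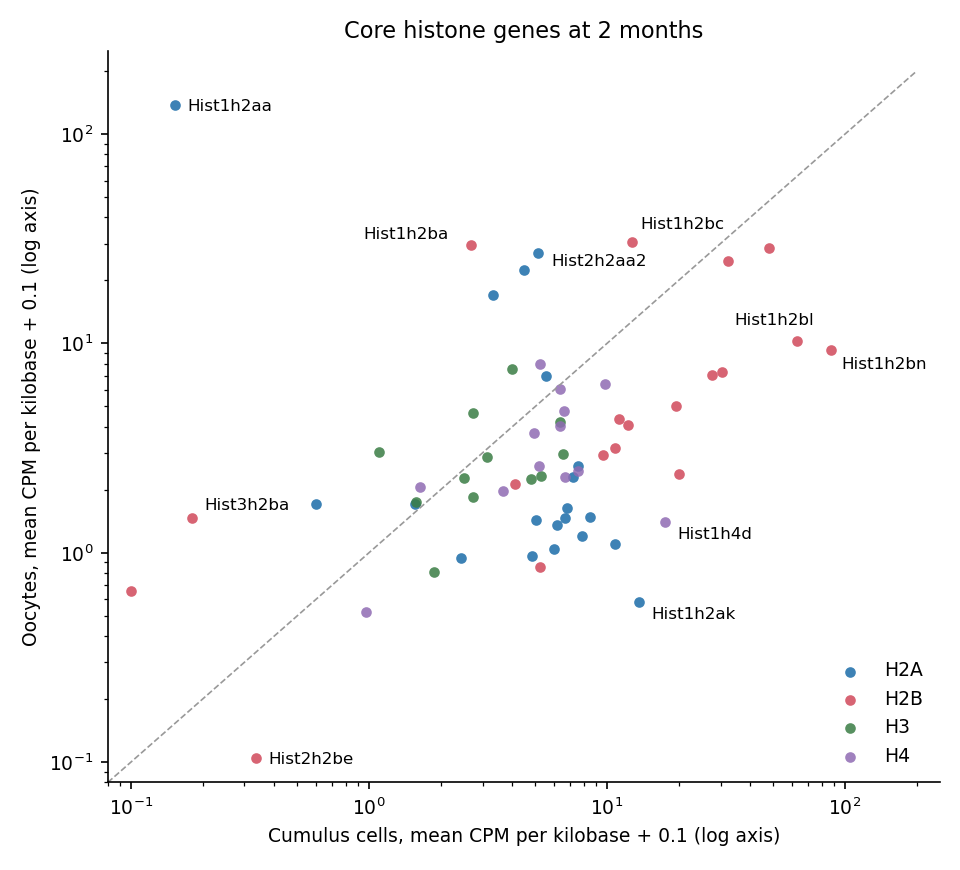
Mean CPM per kilobase of the 64 members in 2mo oocytes (y axis) against 2mo cumulus cells (x axis), both with 0.1 added and on log axes, coloured by histone type, with a dashed line of equal levels. Hist1h2aa stands far above the line, and most H2B genes and Hist1h4d lie below it.

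At 2 months in the second set, 16 of 64 members were higher in oocytes and 34 lower (adjusted p under 0.05, edgeR quasi-likelihood test over all genes). Over all 26662 genes tested, 42.3% were higher and 46.1% lower, so the members' share of higher calls (25%) was under the background and their share of lower calls (53.1%) near it. Their median log2 difference was −0.68, against −0.16 over all genes. The Young comparison of the first set, with no library in common, gave 11 of 63 higher and 33 lower (background 40.7% and 44.9%), and Hist3h2bb-ps had too few counts to be tested. The 11 higher genes were higher in both sets, and 31 were lower in both, which is 93.9% of the Young and 91.2% of the 2mo calls. No member was called in opposite directions. Without the mouse Young2, 27 members were called in the Young comparison, 2 higher and 25 lower.

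Among H2A genes, 7 were higher and 13 lower in 2mo oocytes. Hist1h2aa ranged from 38.2 to 88.9 CPM in oocytes with a median of 58.7. Its counts in the 24 cumulus libraries summed to 0.4, under the floor of 3 counts over the group, so its level was at least 367-fold higher in oocytes (edgeR adjusted p = 7.1e-30). In the other groups the same bound ran from at least 224-fold in Young to at least 665-fold in 4mo, and CR cumulus libraries held 5.6 counts in 13 of 25 libraries. Hist2h2aa2 (chr3:96239749-96240276), which encodes an H2A of the Hist2 cluster, was between 8.65 and 25.1 CPM in oocytes (median 15.8) and between 0 and 6.93 in cumulus cells (median 2.14), with no overlap and a log2 difference of 2.70 ± 0.17 (SE, edgeR adjusted p = 2.6e-22). Hist2h2aa1, its identical twin, differed by 2.63 ± 0.17.

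Among H2B genes, 4 were higher and 14 lower. Hist1h2ba was between 6.18 and 21.8 CPM in 2mo oocytes (median 12.6) and between 0 and 2.81 in cumulus cells (median 1.01). The ranges were apart, and the log2 difference was 3.75 ± 0.22 (edgeR adjusted p = 1.7e-23). Hist1h2bn went the other way, from 2.49 to 6.401 CPM in oocytes (median 3.86) and from 9.18 to 50.4 in cumulus cells (median 28.8), with a log2 difference of −2.89 ± 0.14 (edgeR adjusted p = 3.8e-28). Hist1h2bm and Hist1h2be were lower by −2.71 ± 0.20 and −2.38 ± 0.14 on the log2 scale. Hist3h2ba was low in both cell types, at 0 to 2.54 CPM in oocytes (median 0.982) and 0 to 1.07 in cumulus cells (median 0), and higher in oocytes by 2.89 ± 0.41 on the log2 scale (edgeR adjusted p = 7.3e-07). Hist2h2be had 0.6 counts over the 24 oocyte libraries and 13 over the cumulus libraries, at least 10.9-fold higher in the latter against the floor of 3 counts over the oocyte group. It was named after its value was seen.

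H3 and H4 genes were more evenly split, with 3 higher and 3 lower of 12 H3 genes and 2 higher and 4 lower of 13 H4 genes. Hist1h4d was between 0 and 5.22 CPM in 2mo oocytes (median 1.54) and between 7.34 and 36.2 in cumulus cells (median 18.2), a log2 difference of −3.31 ± 0.20 (edgeR adjusted p = 1.9e-22). Hist4h4, the lone member on chromosome 6, overlapped between the cell types at 2.81 to 11.1 CPM in oocytes and 0 to 11.7 in cumulus cells, and was higher in oocytes by 0.67 ± 0.21 (edgeR adjusted p = 0.0036). In the Young comparison its difference of 0.49 ± 0.33 had an adjusted p of 0.17 by edgeR.

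By cluster, 6 of 50 Hist1 members were higher in 2mo oocytes and 32 lower, against 6 higher and 2 lower of 10 Hist2 members and 3 higher of 3 Hist3 members. In the Young comparison the split was 6 and 30 in Hist1 and 4 and 3 in Hist2. The 4 higher there were Hist2h2aa1 with Hist2h2aa2 and Hist2h3c1 with Hist2h3c2, pairs with identical coding sequences that share reads. Counts of Hist2 calls are therefore not counts of independent genes. Of the Hist3 members, Hist3h2bb-ps had 13.5 counts over the 24 2mo oocyte libraries and was not tested in Young. Hist3h2a, the H2A gene of the Hist3 cluster, was called higher in 2mo oocytes (0.44 ± 0.19, edgeR adjusted p = 0.028) and had a log2 difference of −0.19 ± 0.23 in Young (edgeR adjusted p = 0.44).

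Genes around histone supply were also compared between the cell types at 2 months, where 42.3% of all genes were higher in oocytes and 46.1% lower, so even splits of a list are near the background. Of 23 genes for histone message synthesis and end processing, 11 were higher and 11 lower in oocytes. Slbp, which binds the stem-loop, was at 802 ± 81.4 CPM in oocytes and 86.4 ± 25.97 in cumulus cells (SD, n = 24 each), and the U7 snRNP genes Lsm10 (131 ± 14.0 and 4.75 ± 2.63) and Zfp473 (47.5 ± 17.6 and 0.738 ± 1.01) also lay higher in oocytes. Npat, the coactivator of histone gene transcription, was lower in oocytes at 45.1 ± 9.40 against 80.3 ± 16.6 CPM, as were the cap-binding gene Ncbp1 (4.76 ± 2.51 and 66.0 ± 10.7) and its partner Srrt. Of 41 S-phase genes, 28 were higher and 11 lower in oocytes, with Gins2 and Uhrf1 the largest rises and Pold1 and Rrm1 the largest falls. Of 29 histone chaperones, 17 were higher and 11 lower, led by Npm2 (357 ± 36.1 and 2.53 ± 2.31 CPM), the chaperone that decondenses sperm chromatin, and Asf1b.

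The linker and replacement histones were split as well. Of 9 linker histone genes tested, 2 were higher in oocytes (H1foo, the oocyte form, at 979 ± 80.7 CPM with no count in cumulus libraries after rounding, and Hist1h1a) and 4 lower, with Hist1h1b at 0.390 ± 0.438 against 43.3 ± 13.7 CPM. Of 10 replacement variant genes tested, 5 were higher and 5 lower. H3f3a and H3f3b, which encode H3.3, differed by 0.96 ± 0.06 and 0.15 ± 0.06 on the log2 scale, and H2afz fell to 3.77 ± 1.57 CPM in oocytes from 102 ± 14.6 in cumulus cells. Each of these comparisons ran over 24 oocyte and 24 cumulus libraries.

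The age comparison Old against Young asked how oocyte transcripts change late in reproductive life. The summed core histone level was 193 to 2297 CPM in Old oocytes (median 386), 104 to 671 in Young (median 185), 180 to 467 in Middle (median 264) and 139 to 505 in CR (median 172). The ranges overlapped, and the highest Old value came from 1 library. In the second set the sums were tighter, with group medians between 255 CPM in 14mo and 296 in 4mo and a coefficient of variation of 12.04% in 2mo oocytes.

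**Figure D3:**
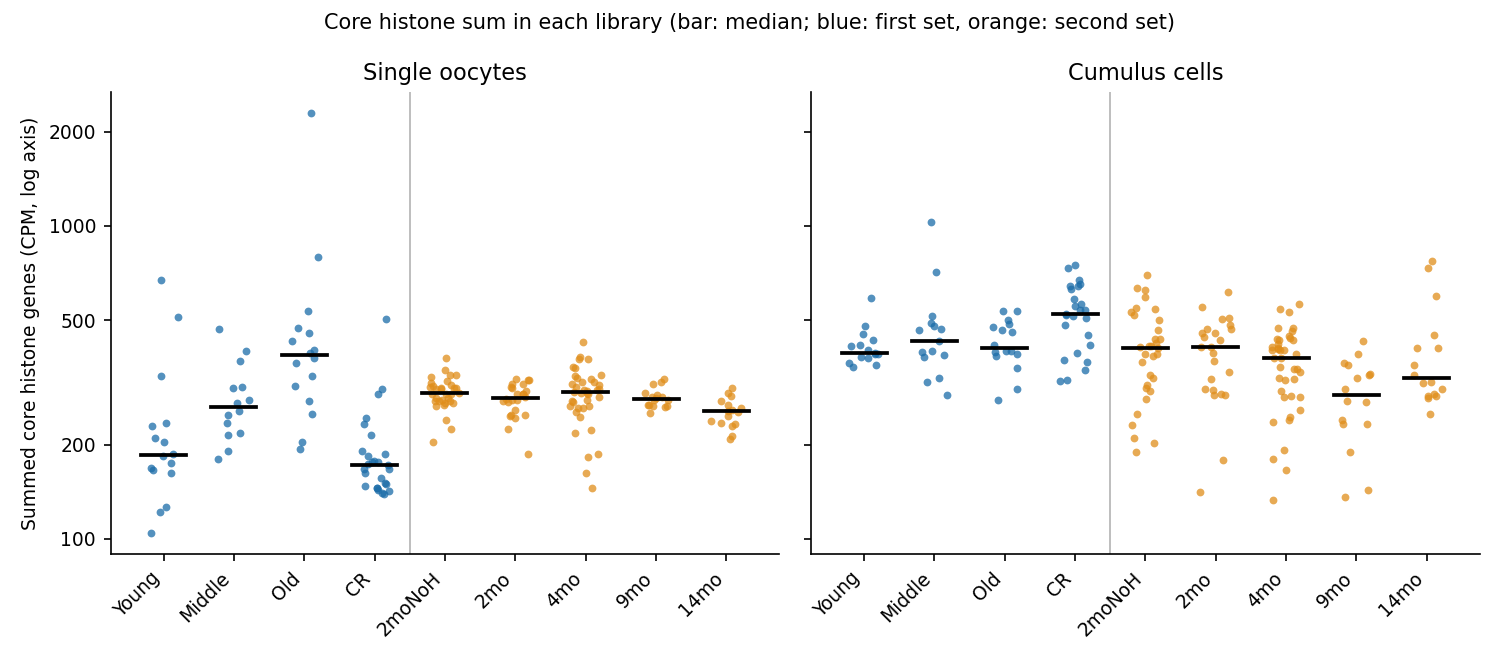
Summed core histone level (TMM-scaled CPM, log axis) in each oocyte library (left) and cumulus library (right) of the 9 groups, first set in blue and second set in orange, with black bars at the group medians. Old oocytes have a median of 386 CPM against 185 in Young and 172 in CR, and 14mo oocytes of the second set have the lowest oocyte median there, 255 CPM.

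In Old oocytes, 31 of 63 members were higher than in Young and 0 lower (edgeR adjusted p under 0.05), where 4.4% of all genes were higher and 2.99% lower. At an unadjusted p under 0.05 there were 60, and all 63 differences were above 0 on the log2 scale, with a median of 1.21 against 0.11 over all genes. The calls fell on 11 of 20 H2A, 14 of 18 H2B, 3 of 12 H3 and 3 of 13 H4 genes. The medians of the 4 types were nearly alike, from 1.16 in H4 to 1.25 in H2B. Hist2h2be had too few counts to be tested.

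Hist1h3f, an H3 gene, was between 4.22 and 105 CPM in Old oocytes (median 11.7) and between 1.83 and 17.8 in Young (median 5.20), with 15 of 16 Old oocytes above the Young median and a log2 difference of 1.43 ± 0.36 (SE, edgeR adjusted p = 0.024). The H2B genes Hist1h2bf, Hist1h2bn and Hist1h2bk rose by 1.43 ± 0.33, 1.33 ± 0.35 and 1.30 ± 0.34. Hist1h2bn reached 1.70 to 37.1 CPM in Old (median 6.63) and 1.03 to 10.4 in Young (median 2.61). Hist1h2aa was between 24.6 and 455 CPM in Old (median 65.2) and between 18.2 and 129 in Young (median 34.6), higher than the Young median in 13 of 16 oocytes, with a difference of 1.17 ± 0.33 (edgeR adjusted p = 0.033). For each of these genes the groups overlapped.

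The other 32 members were not called, with adjusted p from 0.0502 up. Among them were Hist1h2ba (1.03 ± 0.38, edgeR adjusted p = 0.079), Hist4h4 (1.16 ± 0.40, 0.062), Hist3h2a (0.62 ± 0.30, 0.18) and Hist3h2ba (0.15 ± 0.45, 0.87). Hist3h2ba was between 0 and 3.15 CPM in Old oocytes (median 0.805) and between 0 and 2.85 in Young (median 1.02). None of the 9 linker histones tested or 11 replacement variants was called, with 3 and 4 at an unadjusted p under 0.05. Of the 23 processing genes only Lsm11, a U7 snRNP protein, was called, lower in Old (29.2 ± 10.8 against 45.4 ± 16.1 CPM). Slbp (736 ± 134 and 765 ± 143), Npat (50.0 ± 17.5 and 39.7 ± 13.4), H1foo (755 ± 151 and 818 ± 147), H3f3a and H3f3b were not called. Of the chaperones Nap1l1 rose and Chaf1a and Ubn1 fell, and 6 of 41 S-phase genes fell, led by Cdt1 and Rpa1.

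The number of calls in Old against Young depended on single mouse labels, and both calls and differences moved with other measures. Old1_2 holds 11 of the 16 Old oocytes and Young2 12 of the 16 Young. Leaving out either label therefore also removes most libraries of its group. Old1_2 oocytes had sums of 193 to 2297 CPM (median 428) and a median mitochondrial share of counts of 1.43%. Old3 oocytes had 204 to 400 CPM (median 276) and 0.636%, Young1 oocytes 104 to 209 CPM (median 157) and Young2 oocytes 122 to 671 (median 194). Without Old1_2, without Young1 or without Young2, 0 members were called (1, 48 and 46 at an unadjusted p under 0.05 in edgeR), and without Old3, 54 were. With counts summed per mouse label, 0 of 63 were called (33 unadjusted), with a median difference of 1.08 and with 0 calls among all genes. DESeq2 over libraries called 40. Except for the fit per mouse label, the share of all genes called in these refits is not given here.

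The summed level of the 10 cumulus markers was 72.7 to 2221 CPM in Old oocytes (median 419) and 74.5 to 1411 in Young (median 127), with medians of 3.71% and 1.16% of the cumulus medians of the same ages. Of these markers, 4 of 10 were called higher in Old, 0 lower, and 3 of 3 tested markers of luteinizing granulosa cells were higher (summed 1.10 to 490 CPM, median 10.6, against 0.957 to 6.66, median 2.75). With the cumulus marker level as a covariate, 0 members were called (13 unadjusted) and the median difference was 0.49, and with the mitochondrial share as a covariate 0 were called (28 unadjusted) with a median of 0.59. The difference of Hist1h2aa fell from 1.17 to 0.75 and 0.66 under those covariates, and its call was lost (edgeR adjusted p = 0.28 and 0.16). The summed oocyte markers were 7831 to 28400 CPM in Old (median 17789) and 14883 to 26083 in Young (median 22645). How many of all genes were called with each covariate is not given here. The part of these measures in the result was not tested further.

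In 5 first-set oocytes more than 2% of counts were mitochondrial, 2 Old, 2 Young and 1 CR, and they held the highest core histone sums of their groups, as the plot of sums by mitochondrial share shows. The highest Old library had a mitochondrial share of 6.75%, 1192700 counts and a sum of 2297 CPM, and the highest Young library 5.31%, 559310 counts and 671 CPM. Without the 5 libraries, Old oocytes spanned 193 to 536 CPM (median 371) and Young 104 to 332 (median 179), and 40 members were called higher and 0 lower, 29 of them also called with all libraries, at a median difference of 1.02. The share of all genes called in that fit is not given here, so the count of 40 is not read as particular to the members.

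**Figure D4:**
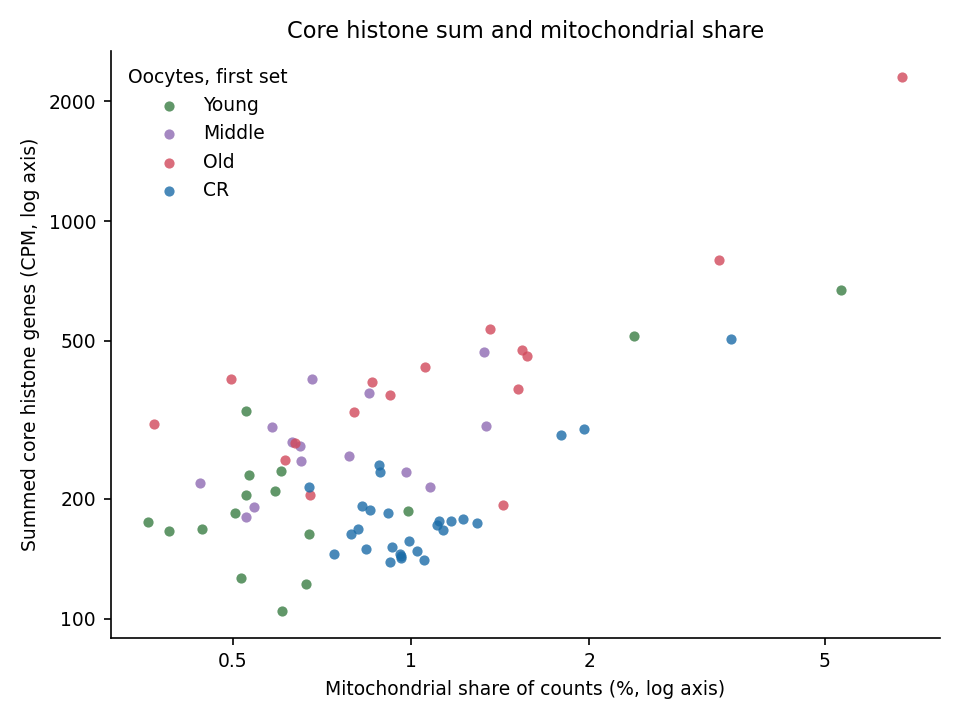
Summed core histone level (TMM-scaled CPM, log axis) against the mitochondrial share of counts (%, log axis) in the first-set oocytes, coloured by group. The libraries over 2% carry the highest sums of Old, Young and CR, up to 2297 CPM at 6.75% in Old, while the other Old oocytes, from 193 CPM up, also lie above the Young median of 185 CPM.

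Across the 16 oocytes of a group, the log2 sum and the mitochondrial share had Pearson correlations of 0.889 in Old and 0.777 in Young, which became 0.385 and −0.058 without the 2 libraries farthest from the median share (Spearman 0.656 and 0.291 over all 16). These values are descriptions, since both measures come from the same library.

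Other ages gave no calls among oocytes. In Middle against Young, 0 of 63 members were called (0% of all genes higher and 0% lower by edgeR, 3 members unadjusted), although 60 of 63 differences were above 0 with a median of 0.27. In the second set, 14mo against 2mo gave 0 calls of 63 (6 unadjusted), where 0.662% of genes were higher and 0.477% lower, and the median difference was −0.16. All 12 H3 genes lay below 0 there, from −0.45 to −0.17. Hist1h2aa was between 34.5 and 75.7 CPM in 14mo (median 52.2) and between 34.9 and 78.9 in 2mo (median 51.6), a log2 difference of −0.02 ± 0.08. DESeq2 called 1 member and the fit without the mouse 2mo36 called 4, lower in 14mo. Old against Young and 14mo against 2mo compare the same ages, with 63 and 17 of 63 differences above 0, and the difference between the sets was not tested. Comparing 9mo with 2mo (0 calls, 2 unadjusted, 0.0755% and 0.0844% of genes) and 4mo with 2mo (0 calls, 0 unadjusted, 0.00843% and 0.00421%) gave medians of −0.02 and 0.06. DESeq2 called 0 members in these 2 comparisons and in Middle against Young.

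Calorie restriction was compared with AL feeding at 9 months. In CR oocytes, 26 of 64 members were lower and 1 higher than in Middle (edgeR adjusted p under 0.05), where 14.2% of all genes were lower and 15.8% higher, with 41 members at an unadjusted p under 0.05. The median log2 difference was −0.61, against 0.00 over all genes. Lower calls fell on 10 of 13 H4, 6 of 12 H3, 5 of 20 H2A and 5 of 19 H2B genes, and by cluster on 20 of 50 Hist1 members, 5 of 10 Hist2 members and Hist4h4.

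Hist2h2aa2 was between 3.19 and 10.95 CPM in CR (median 5.13) and between 7.95 and 23.6 in Middle (median 10.0), with 1 of 27 CR oocytes above the Middle median and a log2 difference of −1.11 ± 0.15 (edgeR adjusted p = 8.4e-08). Hist2h2aa1, which shares its coding sequence, differed by −1.10 ± 0.15. The H2B gene Hist1h2bc was between 14.0 and 33.97 CPM in CR (median 19.4) and between 24.9 and 60.1 in Middle (median 32.9), a difference of −0.73 ± 0.11 (edgeR adjusted p = 1.3e-06). The groups overlapped in each, and 1 of 27 CR oocytes lay above the Middle median of Hist1h2bc. Hist1h2aa was lower by −0.50 ± 0.19 (edgeR adjusted p = 0.038), at 16.7 to 103 CPM in CR (median 29.3) and 18.5 to 96.6 in Middle (median 44.9), and the call was lost without the mouse Middle2 (−0.23, edgeR adjusted p = 0.51), without CR3 (−0.31, 0.38), without CR2 (−0.45, 0.12) and without Middle3 (−0.43, 0.080). With counts summed per mouse label it was −0.24 (0.70).

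Hist4h4 was lower by −0.62 ± 0.23 (edgeR adjusted p = 0.037). Hist1h2ba (−0.38 ± 0.23, edgeR adjusted p = 0.24), Hist3h2a (−0.07 ± 0.20, 0.85) and Hist3h2ba (0.50 ± 0.33, 0.26) were not called. The only member called higher, Hist2h4, an H4 gene named after its value was seen, was between 0.564 and 4.73 CPM in CR (median 2.00) and between 0 and 2.51 in Middle (median 0.865), a difference of 1.21 ± 0.33 (edgeR adjusted p = 0.0035).

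The related genes moved both ways, as did all genes, of which 15.8% were higher and 14.2% lower in CR. Of 9 linker histones tested, 3 were lower in CR oocytes (Hist1h1a, H1f0 and H1foo, the last at 582 ± 57.4 against 728 ± 102 CPM), and 6 of 10 replacement variants were lower, led by H2afx (11.4 ± 2.37 against 23.3 ± 6.46 CPM) and H2afv, with H3f3a and H3f3b at −0.36 ± 0.09 and −0.50 ± 0.08 on the log2 scale. Of the processing genes 6 rose, led by Zfp473 (76.4 ± 25.4 against 35.7 ± 11.2 CPM), and 5 fell, led by Lsm10 (51.6 ± 7.65 against 85.2 ± 22.04 CPM), while Slbp (751 ± 94.7 and 739 ± 108) and Npat (43.6 ± 8.47 and 41.6 ± 7.13) were not called. Of the 29 chaperones 11 rose and 4 fell, so a larger share rose than among all genes. Of the 41 S-phase genes 7 rose and 8 fell, shares near those of all genes. SDs are over 27 CR and 14 Middle oocytes.

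The number of lower members varied with the libraries used, and the share of all genes called in each refit is not given here. With counts summed per mouse label, 5 were lower and 1 higher, all of them also called over libraries, Hist2h2aa2 (adjusted p = 0.035) and Hist1h2bc (0.025) among them. With the CR counts thinned to the depth of Middle, 21 were lower and 2 higher. Without the library over 2% mitochondrial counts 39 were lower, with the mitochondrial share as a covariate 55, and with the removed complex included 49. Without the mouse CR3 the lower calls were 9, and without Middle2 they were 8. The summed cumulus markers were 89.4 to 1545 CPM in CR oocytes (median 181) and 96.6 to 1717 in Middle (median 215), and with them as a covariate 31 members were lower. All 3 luteinizing granulosa markers tested were lower in CR oocytes, where their sum reached 46.0 CPM against 1112 in Middle, and the medians were 4.99 and 4.51.

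**Figure D5:**
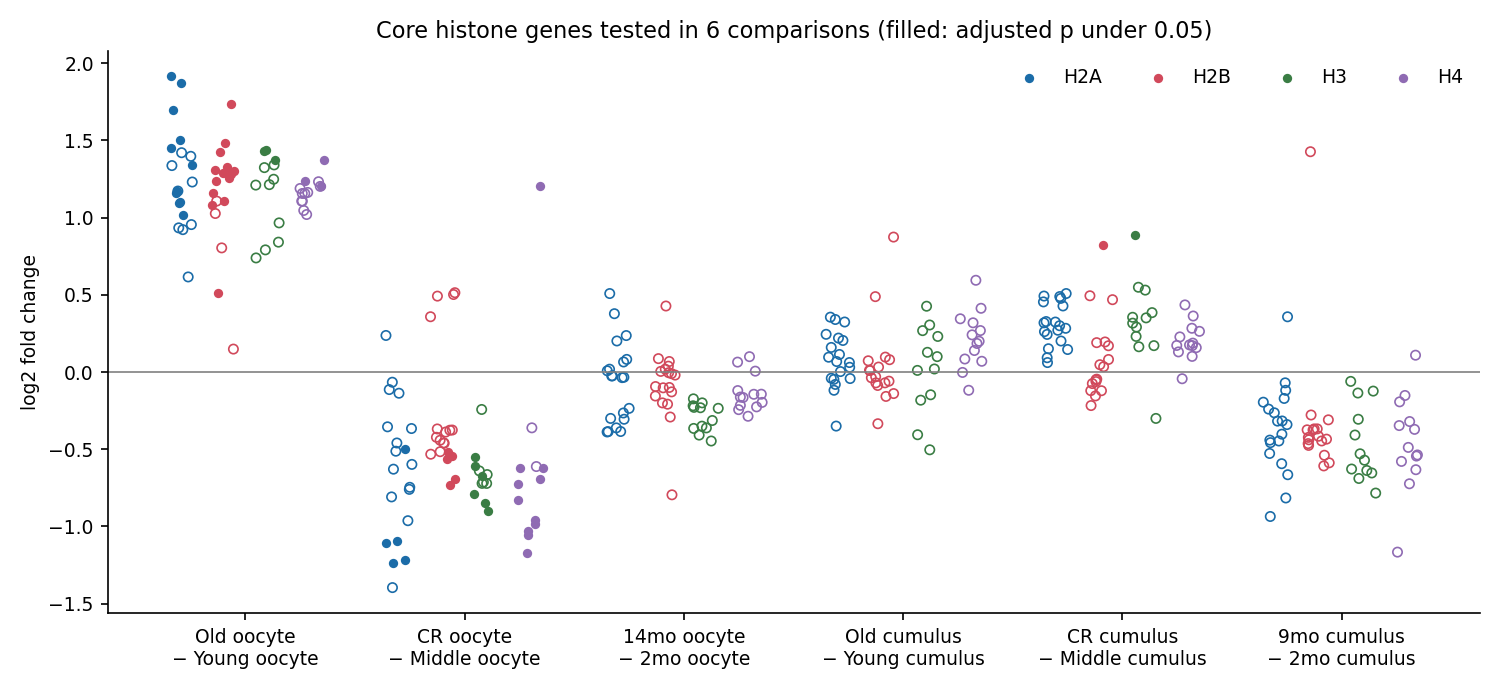
log2 fold change of each member tested (y axis) in 6 comparisons, coloured by histone type, with filled points for an adjusted p under 0.05. All points of Old against Young oocytes lie above 0, most of CR against Middle oocytes lie below 0, and few or no points are filled in the other comparisons.

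In cumulus cells no member was called in any age comparison when all libraries and genes seen in at least 5 libraries entered, by edgeR or by DESeq2. With edgeR's filterByExpr 1 was called in 14mo against 2mo, with the plate as a covariate also 1, and without the mouse Middle1 there were 2 in Middle against Young. Each library is a pool, in which fewer cells of a type and less RNA per cell cannot be told apart. The summed level had medians of 393 CPM in Young, 429 in Middle, 407 in Old and 525 in CR in the first set, and of 407, 410, 379, 288 and 326 CPM in 2moNoH, 2mo, 4mo, 9mo and 14mo in the second. Hist1h2aa, Hist3h2ba and Hist3h2bb-ps had too few counts for a test, which left 61 members. Old against Young gave 0 calls by edgeR (2 unadjusted, 1.77% of genes higher and 2.19% lower), Middle against Young 0 (4 unadjusted, 0.653% and 0.808%), 4mo against 2mo 0 (3 unadjusted, 0.398% and 0.121%) and 14mo against 2mo 0 (1 unadjusted, 0.927% and 0.77%). Comparing 9mo with 2mo gave 0 calls at 19 unadjusted (1.51% of genes higher and 0.404% lower), with 3 of 61 differences above 0 and a median of −0.42. Hist4h4 was between 0 and 5.71 CPM in 9mo (median 1.27) and between 0 and 12.9 in 2mo (median 3.82), a difference of −1.17 ± 0.38 (edgeR adjusted p = 0.096). Without the mouse 2mo35, 6 members were called lower in 9mo.

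CR cumulus cells had 2 of 61 members higher than Middle and 0 lower (edgeR, 6 unadjusted), where 2.06% of genes were higher and 1.53% lower. The members' share of higher calls (3.28%) was thus near that of all genes. Hist2h2bb, an H2B gene, was between 4.35 and 18.6 CPM in CR (median 11) and between 2.04 and 13.8 in Middle (median 6.401), with 24 of 25 CR libraries above the Middle median and a difference of 0.82 ± 0.18 (edgeR adjusted p = 0.0049). Hist2h3c2, an H3 gene, was between 1.803 and 11.3 CPM in CR (median 5.89) and between 0.959 and 6.20 in Middle (median 3.16), a difference of 0.89 ± 0.24 (edgeR adjusted p = 0.025). Hist2h3c1, which shares its coding sequence, was not called (0.53 ± 0.29, edgeR adjusted p = 0.34). How reads were split between the pair is uncertain. In contrast to the oocytes, 51 of 61 differences were above 0, with a median of 0.23. Beside them, 15 of 41 S-phase genes rose and 0 fell, led by Mcm10 and E2f1, and 4 chaperones rose, among them Hat1 and Asf1b. Neither member was called with counts summed per mouse label (0 called, 3 unadjusted in edgeR) or without the mouse Middle1 (0 called, 2 unadjusted). The call of Hist2h3c2 was also lost without CR1 (edgeR adjusted p = 0.0501), CR2 (0.0748) and Middle2 (0.234), so in 4 of 7 fits that left out a mouse.

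Fits that compared the effect in oocytes with that in cumulus cells were added after these results had been seen. They had libraries as units, did not pair an oocyte with its cumulus cells and were not repeated per mouse label. For Old against Young, 15 of 64 members had a larger difference in oocytes and 0 a smaller one (background 3.06% and 1.68% of genes), with a median of 1.13. For CR against Middle, 0 were more positive in oocytes and 28 more negative (4.3% and 8.42%), with a median of −0.89. Hist1h2bn differed by 1.22 ± 0.35 in the first (edgeR adjusted p = 0.030), and Hist2h2aa2 by −1.45 ± 0.23 (1.1e-06) and Hist1h2bc by −0.75 ± 0.18 (0.0015) in the second.

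Hyperovulation was compared at 2 months of age. Between 2mo and 2moNoH oocytes 0 of 63 members were called (2 unadjusted in edgeR, 0.0128% of genes higher and 0.0171% lower), with a median difference of −0.05. Hist1h2aa was between 35.2 and 79.1 CPM with hyperovulation (median 51.9) and between 35.2 and 80.1 without (median 58.2), a difference of −0.16 ± 0.07 (edgeR adjusted p = 0.61). In cumulus cells 0 of 61 were called (3 unadjusted in edgeR), although 6.16% of all genes were higher with hyperovulation and 7.01% lower. Of the S-phase genes 9 rose there and 0 fell, with Rrm2 at 202 ± 46.1 CPM against 135 ± 46.7 and Mcm3 at 244 ± 47.9 against 173 ± 62.9 (SD, n = 24 and 32). The summed core histone medians were 410 and 407 CPM. DESeq2 called 0 members in either cell type.

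Cumulus libraries of a group that had more S-phase message tended to have more core histone message in some groups and not in others. Over libraries of a group, the log2 of the summed core histone level and that of the 41 S-phase genes had Pearson correlations of 0.735 in CR (n = 25), 0.730 in 4mo (n = 40), 0.690 in 9mo (n = 16), 0.674 in 2moNoH (n = 32) and 0.583 in 14mo (n = 16). The values were 0.392 in Young (n = 15), 0.194 in 2mo (n = 24), 0.094 in Middle (n = 15) and −0.070 in Old (n = 16). Spearman values in the first 5 of these were between 0.524 and 0.753. Without the 2 libraries farthest from the median S-phase sum, Pearson values were between 0.589 and 0.713 in these 5 groups, and 0.476, 0.249, −0.194 and 0.261 in Young, 2mo, Middle and Old. In oocytes the same Pearson values ran the other way in most groups, at −0.885 in Young (n = 16), −0.813 in Old (n = 16), −0.791 in CR (n = 27), −0.748 in 4mo (n = 39) and −0.613 in Middle (n = 14), and lay between −0.324 and 0.212 in the other 4 groups. Without the 2 farthest libraries those 5 were −0.558, −0.717, −0.425, −0.678 and −0.189, and their Spearman values lay between −0.785 and −0.391. Both sums share each library's depth, and no test was made.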

How the data were processed

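The authors trimmed reads with Fastq-mcf, aligned them to GRCm38 with HISAT2 2.0.5 and counted them with featureCounts 1.5.1. The deposited expected counts are fractional, since a read that fits several genes was shared among them. The authors also deposited RPKM values, which were used here only to recover gene lengths.

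Counts were rounded and tested with edgeR 4.0.16 (R 4.3.3, limma 3.58.1) by its quasi-likelihood F test with TMM library sizes, leaving out any gene seen in fewer than 5 of the libraries compared, at a Benjamini-Hochberg adjusted p under 0.05 over all genes tested. Libraries were the units, and only the groups compared entered a fit. DESeq2 1.42.0 was an alternative. On simulated counts for Old against Young, 55% of genes changed 2-fold and 99% of genes changed 4-fold were recovered. Every simulated gene had the same dispersion, mice did not differ, and only genes at or above a minimum mean count were changed. This recovery therefore does not hold for genes as variable as the members in Old oocytes. The lowest level that counts allow was set at 3 counts over a group and covers counting error only.

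Members named were the 4 largest rises and falls among called genes at a mean of 5 CPM or more, the highest levels per kilobase, and Hist1h2aa, Hist1h2ba, Hist4h4, Hist3h2a and Hist3h2ba. Members and lists were chosen with earlier results of these data known. Sequences came from GENCODE vM21 transcripts and RefSeq upstream windows. Of the 43633 identifiers, 43512 were found in that annotation.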

Additional observations from a re-analysis of the deposited data

Results flagged for a closer look

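The change with age and the change with diet were compared between oocytes and cumulus cells of the first set. For Old against Young, 15 of 64 core histone genes had an effect in oocytes that differed from that in cumulus cells, each higher in oocytes. Over all genes, 3.06% were higher and 1.68% lower. For CR against Middle, 28 of 64 members differed, each lower in oocytes, where 4.3% of all genes were higher and 8.42% lower. These fits were chosen after the data were seen, had libraries as units without pairing by follicle, and were not repeated per mouse label.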

How the results depend on the processing

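Counts of called core histone genes are given as edgeR calls unless another tool is named. For most alternative fits, here and above, the share of all genes called in the same fit is not given. A higher or lower count there is therefore not read as particular to the members. With edgeR's filterByExpr, which tested fewer members, calls numbered 17 in Old against Young oocytes, 16 in CR against Middle oocytes, 14 between 2mo oocytes and cumulus cells, 12 between Young oocytes and cumulus cells, 2 in 14mo against 2mo oocytes and 1 in 14mo against 2mo cumulus cells. With counts summed per mouse label they numbered 0 in Old against Young oocytes, 6 in CR against Middle oocytes and 0 in CR against Middle cumulus cells. With the mitochondrial share as a covariate they were 0 and 56 in the Old and CR oocyte comparisons, and with the cumulus markers as a covariate 0 in the former. With the removed complex included CR against Middle oocytes had 49. DESeq2 called 1 gene in 14mo against 2mo oocytes, and the plate as a covariate gave 1 in 14mo against 2mo cumulus cells and 1 in 2mo against 2moNoH cumulus cells. Apart from the construction of filterByExpr, the cause was not tested.

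Leaving out 1 mouse label at a time gave 0 to 54 calls in Old against Young oocytes, 10 to 36 in CR against Middle oocytes, 0 to 3 in CR against Middle cumulus cells, 0 to 2 in Middle against Young cumulus cells (2 without Middle1), 0 to 6 in 9mo against 2mo cumulus cells (6 without 2mo35 and 1 without 9mo22), 0 to 4 in 14mo against 2mo oocytes, 27 to 42 between Young oocytes and cumulus cells and 48 to 50 between 2mo oocytes and cumulus cells. The sign of a named member changed in 54 of 1064 refitted values, none of them called with all libraries or in the alternative. The follicle as a replicate block, which pairs an oocyte with its cumulus cells, left 42 calls in Young (41 shared) and 50 in 2mo (50 shared), and changed no count by over 1.5 times. Paired libraries deviated together weakly, with median correlations between 0.00828 and 0.0512 over the groups. Low counts limit members such as Hist3h2ba, and the number of mouse labels limits every comparison of age or diet.

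These sign changes are given as log2 differences. Counts summed per mouse label gave Hist3h2a −0.0074 in 14mo against 2mo oocytes, 0.19 in CR against Middle oocytes and 0.27 between Young oocytes and cumulus cells, and Hist4h4 0.077 in 14mo against 2mo cumulus cells. The plate as a covariate gave Hist1h2aa 4.1e-05 and Hist3h2a −0.030 in 14mo against 2mo oocytes and Hist4h4 0.052 in 14mo against 2mo cumulus cells. Between Young oocytes and cumulus cells Hist3h2a was 0.031 with the replicate block and 0.025 with no filter. In Old against Young oocytes Hist3h2ba was −0.051 with the cumulus marker covariate, −0.17 with the mitochondrial covariate and −0.041 without libraries over 2% mitochondrial counts. The cause was not tested.

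Leaving out 1 mouse label at a time gave these ranges. Hist1h2aa ran from −0.10 to 0.051 in 14mo against 2mo oocytes. Hist1h2ba ran from −0.012 to 0.49 in 14mo against 2mo cumulus cells, −0.33 to 0.17 in 2mo against 2moNoH cumulus cells, −0.069 to 0.91 in Middle against Young oocytes and −0.62 to 0.12 in Old against Young cumulus cells. In oocytes Hist3h2a ran from −0.17 to 0.12 in 14mo against 2mo, −0.011 to 0.098 in 2mo against 2moNoH, −0.0060 to 0.17 in 9mo against 2mo, −0.17 to 0.081 in CR against Middle and −0.11 to 0.86 in Old against Young. In cumulus cells it ran from −0.055 to 0.22 in 14mo against 2mo, −0.11 to 0.49 in CR against Middle, −0.061 to 0.55 in Middle against Young and −0.19 to 0.66 in Old against Young, and between Young oocytes and cumulus cells from −0.20 to 0.067. In oocytes Hist3h2ba ran from −0.21 to 0.0040 in 2mo against 2moNoH, −0.35 to 0.44 in Middle against Young and −0.34 to 0.75 in Old against Young. Hist4h4 ran from −0.19 to 0.25 in 14mo against 2mo cumulus cells, −0.24 to 0.14 in 2mo against 2moNoH cumulus cells, −0.17 to 0.029 in 2mo against 2moNoH oocytes, −0.073 to 1.18 in Middle against Young oocytes and −0.63 to 0.79 between Young oocytes and cumulus cells.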
